A study of Urocitellus parryii with 44 samples.

Results

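The RNA polymerases and general transcription factors are the proteins that read genes into RNA. On the membranes they were taken as every probe whose single gene symbol begins with Polr1, Polr2, Polr3 or Gtf, or with Taf or Med followed by a digit. The rule found 200 probes of 86 genes, out of 38400 probes and 11786 single-symbol genes, and all 200 probes could be tested. A further 12 probes name such a gene together with other genes and were left out.

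Brown adipose tissue, the heat-producing fat of mammals, was taken from 5 arctic ground squirrels in winter torpor and from 3 that were active in August. Total RNA of each animal was labelled with radioactive phosphorus and hybridised to 4 membranes of mouse cDNA probes (MA07, MA08, MA10 and MA11, 9600 probes each). Duplicate columns exist for 3 animals (summer 1, summer 2 and torpid 5), whose RNA was divided after extraction, and their mean stands for the animal. The sources used here give no age or sex. Season and activity state changed together and cannot be told apart, and the labels name no other treatment for either group.

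RNA polymerase I makes the large ribosomal RNA precursor, RNA polymerase II makes messenger RNA, and RNA polymerase III makes transfer RNA, 5S ribosomal RNA and other small RNAs. Each enzyme has its own promoter factors, among them SL1 for polymerase I and TFIIIA and TFIIIC for polymerase III. Those of polymerase II include TFIIA, TFIIB, TFIID, TFIIE, TFIIF and TFIIH. Mediator passes signals from gene-specific activators to polymerase II. In hibernators, transcription as a process slows greatly at the low body temperature of torpor. The membranes measure the amounts of the transcripts that encode this machinery, not its activity.

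Values are log2 of the spot intensity over the median of its column, and differences are torpor minus summer on that scale. A level belongs to its probe, so levels are not compared between probes or genes. In whole tissue, fewer cells of a type and less RNA per cell cannot be told apart.

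Relative to the column median, transcripts of the machinery showed no common shift between torpor and summer. A change shared by most transcripts would be removed by that scaling, so these values cannot show it. Each gene was represented by its brightest probe, the one whose mean log2 signal over all 8 animals ranked highest on its membrane. This choice uses the compared values, 5 of the 8 animals being torpid, so it can favour probes that are high in torpor. By it, 48 genes were higher in torpor and 38 lower, with a median difference of 0.10. Over the 11711 single-symbol genes tested, chosen the same way, 53.2% were higher and the median was 0.03. By the median over the probes of each gene, the median of the 86 genes was -0.004. Over probes the split was 96 positive and 104 negative, with a median of -0.02, inside quartiles of -0.26 and 0.27 for all tested probes. For the brightest probe of each gene, the deviation of each animal was taken from the midpoint of the summer and torpor means. The median deviation of the 86 genes ran from -0.09 to 0.04 in the 3 summer animals. In the 5 torpid animals it ran from -0.01 to 0.13, so the groups overlapped.

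By limma with Benjamini-Hochberg adjustment over all 37848 tested probes, 2 of the 200 member probes (1%) passed an adjusted p of 0.05, and both were higher in torpor. Over all tested probes the share was 0.309%, with 0.259% higher and 0.0502% lower. Counted at an unadjusted p below 0.05, 21 member probes (10.5%) of 17 genes passed, against 11.6% of all tested probes. Of these, 13 were higher (6.5%, against 6.39% of all) and 8 lower (4%, against 5.18%). In 9 member probes every torpid animal lay above every summer animal (4.5%, against 4.37% of all), and in 7 every torpid animal lay below (3.5%, against 4.13%). Apart from the 2 called probes, the members' shares therefore lay near those of all probes.

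**Figure D1:**
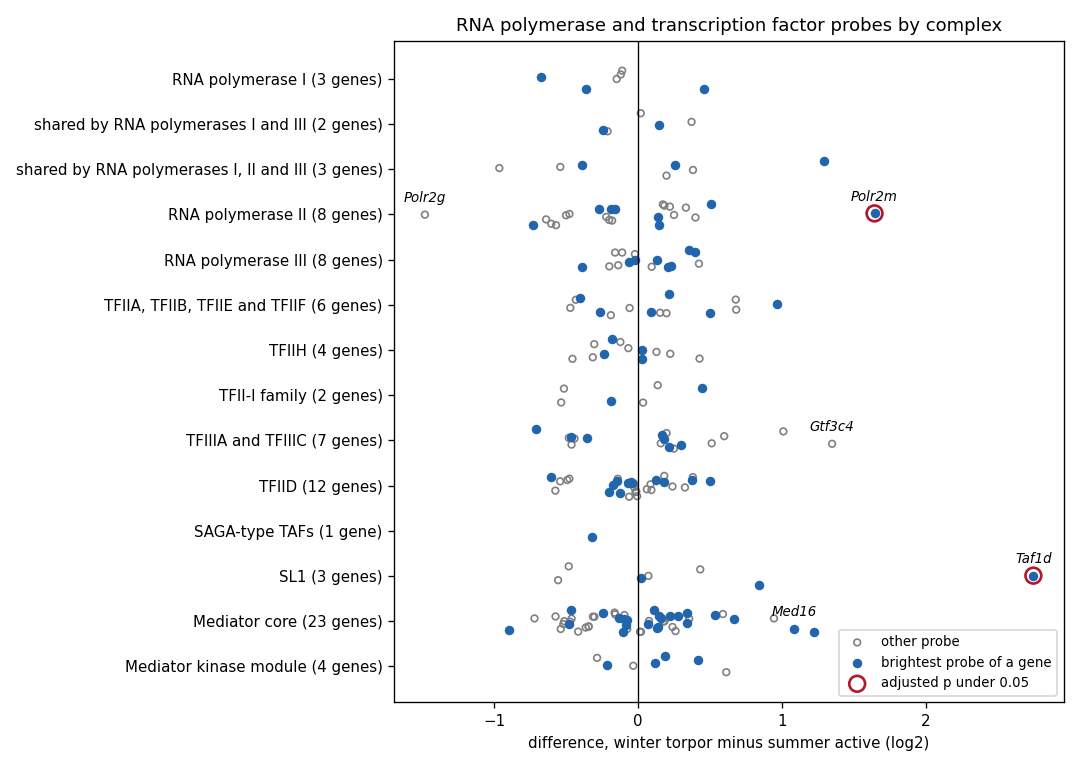
Difference between winter torpor and summer active animals (log2, x axis) for each of the 200 probes, by complex. Filled points are the brightest probe of each of the 86 genes, open points their other probes, and red rings the 2 probes with an adjusted p under 0.05. Most points lie within 1 of 0, and the ringed probes of Taf1d (2.75) and Polr2m (1.64) stand to the right.

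The called probes were those of Taf1d on MA10 and Polr2m on MA07. Taf1d is a subunit of SL1, the TATA-binding protein complex that starts ribosomal RNA transcription. Its MA10 probe 2167 read 3.57, 1.19 and 1.84 in the summer animals and 5.29, 4.53, 4.65, 5.10 and 5.17 in the torpid animals. Every torpid animal was above every summer animal, and the summer animals were spread far more widely than the torpid ones. The group means were 2.20 ± 1.23 (SD, n = 3) and 4.95 ± 0.34 (SD, n = 5), a difference of 2.75 ± 0.48 (SE) or 6.71-fold, with an adjusted p of 0.0212 by limma.

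Duplicates of the same summer RNA also lay far apart at this Taf1d probe. The duplicates of summer animal 2 read -0.77 and 3.15 and those of summer animal 1 read 3.10 and 4.05, while those of torpid animal 5 read 5.24 and 5.10. All 6 torpid columns were above all 5 summer columns. With the first duplicates alone the difference was 3.57 (adjusted p = 0.0143), and with the second alone it was 1.92 (adjusted p = 0.136). The call was also lost without summer animal 2 (adjusted p = 0.0603), summer animal 3 (0.0586), torpid animal 1 (0.0515) or torpid animal 2 (0.0608), over differences of 2.24 to 3.43 with an animal left out.

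Polr2m encodes Gdown1, a protein bound to a part of the RNA polymerase II pool that keeps TFIIF off the enzyme and makes it depend on Mediator. Its MA07 probe 2410 read 2.87, 2.31 and 3.20 in summer and 4.70, 4.67, 4.53, 4.11 and 4.18 in torpor. The groups did not overlap, and the nearest animals of the groups were about as far apart as the summer animals were from each other. Means were 2.79 ± 0.45 (SD, n = 3) and 4.44 ± 0.28 (SD, n = 5), a difference of 1.64 ± 0.24 (SE) or 3.12-fold, with an adjusted p of 0.0282 by limma. The duplicates of summer animal 2 again lay far apart, at 3.46 and 1.16. In the mouse genome Polr2m lies in a complex locus whose readthrough transcripts join it to the neighbouring Myzap, and which of these transcripts the probe reads was not analysed here.

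The Polr2m call was lost under several alternatives. Cyclic loess scaling gave a difference of 0.99 (adjusted p = 0.109), and variance moderation with a trend gave an adjusted p of 0.158. Leaving out summer animal 2 (0.0507) or torpid animal 1 (0.0785), 2 (0.0809) or 3 (0.0774) took the adjusted p above 0.05, over differences of 1.40 to 1.85.

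Other probes of Taf1d and Polr2m did not show differences of this size. Of the 4 other Taf1d clones, MA07 probe 3217 went the opposite way, at 1.81, 2.08 and 1.99 in summer and 1.58, 1.49, 1.57, 1.25 and 1.50 in torpor. That is a difference of -0.48 ± 0.17 (SE) with no overlap between the groups (p = 0.0152 unadjusted, 0.297 adjusted by limma). This probe too was bright, at the signal percentile 92.0 of its membrane against 96.9 for the MA10 probe. The remaining Taf1d clones gave -0.56, 0.07 and 0.43. For Polr2m both other clones were positive, at 0.17 on MA08 and 0.40 on MA11, the latter from one of the dimmest spots of its membrane (percentile 1.96).

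**Figure D2:**
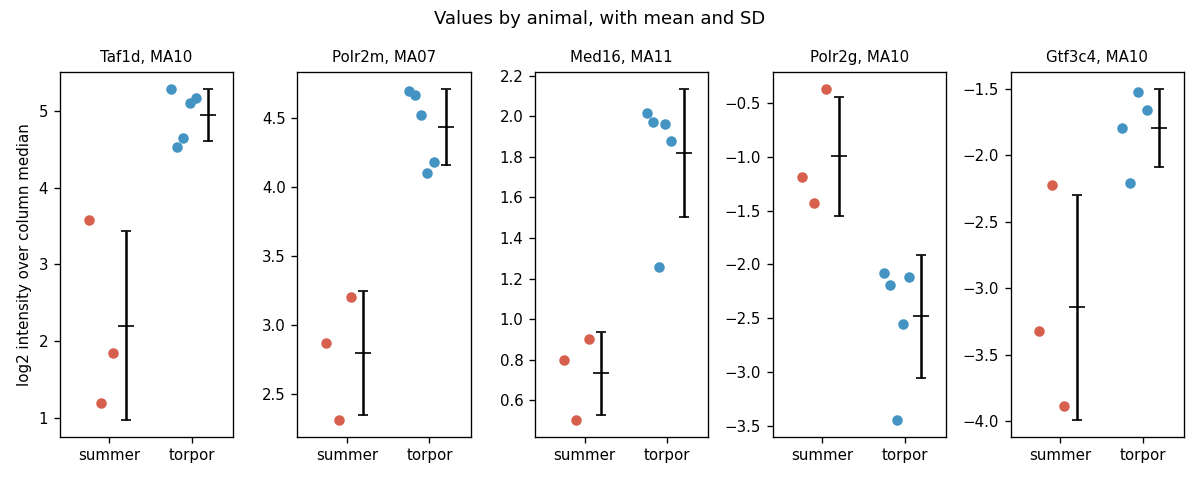
Log2 intensity over the column median (y axis, own scale per panel) of the 5 probes with an unadjusted p under 0.01, for 3 summer active (red) and up to 5 winter torpor (blue) animals, with black bars for the mean and SD beside them. The groups do not overlap in any panel, and the Polr2g panel alone has the torpid animals below.

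Among the subunits of RNA polymerase I, Polr1a, the largest catalytic subunit, gave 0.46 ± 0.31 (SE) on its brighter probe and -0.15 on the other, and neither passed the test. Polr1b, the second catalytic subunit, read 0.81, 0.78 and 0.89 in summer and 0.45, 0.65, 0.43, 0.34 and 0.44 in torpor on MA08. These groups did not overlap, but the difference of -0.36 ± 0.18 (SE) had an unadjusted p of 0.0687. Polr1e, which encodes the subunit PAF53, gave -0.67 ± 0.43 (SE) on MA10 and -0.12 on MA07. The median over these 3 genes was -0.36, and it was -0.12 without MA10.

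Polr1c and Polr1d encode the pair that seeds assembly of both polymerase I and polymerase III. The Polr1c probe on MA08 read 0.74, 0.92 and 0.67 in summer and 1.15, 1.32, 1.22, 1.09 and 0.95 in torpor, without overlap. Its difference of 0.37 ± 0.19 (SE) had an unadjusted p of 0.0718, and the same clone on MA11 gave 0.15. Polr1d gave -0.24 on its brighter probe and 0.02 on the other.

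The 3 measured subunits common to all 3 polymerases each had probes of both signs. Polr2h, which encodes RPB8, read 2.91, 1.35 and 3.74 in summer and 4.03, 4.47, 3.57, 3.77 and 3.96 in torpor on MA07, a difference of 1.29 ± 0.45 (SE) (p = 0.0156 unadjusted, 0.300 adjusted). Summer animal 3 lay inside the torpid range. On MA08 another Polr2h clone gave -0.54 ± 0.24 (SE) (p = 0.0444 unadjusted), the opposite sign. Polr2f, which encodes RPB6, gave 0.20 and 0.26 at its 2 MA08 spots of 1 clone and -0.96 ± 0.43 (SE) on MA10 (p = 0.0367 unadjusted). Polr2e, which encodes RPB5, gave 0.38 on MA07 and -0.39 on MA10. Their median was 0.26 by the brightest probes, -0.09 with cyclic loess and -0.39 without MA07 or without MA08.

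In RNA polymerase II, 4 of 8 genes were higher in torpor and 4 lower, with a median of -0.01. The median was 0.25 without summer animal 2, 0.22 without MA08 and -0.17 by the median over the probes of each gene. Polr2a, the catalytic subunit whose tail is phosphorylated through the transcription cycle, gave -0.16 ± 0.21 (SE) on its brightest probe, -0.20 for the same clone on MA11 and 0.33 for another clone. Polr2b, the second catalytic subunit, gave -0.19 ± 0.44 (SE) with its single probe. Neither subunit passed the test, and both standard errors exceed the differences.

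Polr2g and Polr2d encode the stalk of polymerase II. The Polr2g probe 8507 on MA10 read -1.19, -1.43 and -0.37 in summer and -2.08, -2.20, -3.44, -2.55 and -2.12 in torpor. With duplicates averaged, all torpid animals were below all summer animals, with torpid animal 3 the lowest. The difference was -1.48 ± 0.42 (SE), the most negative of the 200 probes (p = 0.00265 unadjusted, 0.169 adjusted by limma). Single columns overlapped, as duplicates read -0.54 and -2.32 in summer animal 2 and -2.73 and -1.51 in torpid animal 5. The difference was -1.88 with first duplicates alone (adjusted p = 0.0839 by limma) and -1.09 with second duplicates alone (0.466). The probe is dim, at percentile 19.7, and the 2 other Polr2g clones, which are both brighter, gave 0.22 and 0.15. Polr2d gave -0.27 and -0.50.

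Polr2c and Polr2j encode the pair on which polymerase II is assembled. The 4 Polr2c spots on MA08 carry 1 clone and gave -0.48, -0.57, -0.64 and -0.73. The largest of these, at -0.73 ± 0.27 (SE), had an unadjusted p of 0.0213 and an adjusted p of 0.333. These spots lie at or below percentile 13.1, share a target and are not independent. Polr2j had 5 probes with differences from -0.60 to 0.51. Polr2i, which encodes RPB9, gave 0.14 and 0.18.

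Of the 8 genes of RNA polymerase III, 5 were higher and 3 lower, with a median of 0.17, and no probe reached an unadjusted p of 0.05. The median was -0.01 over the probes of each gene, with 7 probes positive and 8 negative, and at its lowest 0.05 with an animal left out. The catalytic subunits gave -0.39 ± 0.28 (SE) for Polr3a and -0.07 ± 0.45 (SE) for Polr3b, each with a single probe. Without summer animal 3 the Polr3a difference was -0.07. Polr3f, a subunit of the part that opens the promoter, was positive with all 3 clones, at 0.39, 0.09 and 0.42. Its MA07 probe read 0.50, 0.34 and 0.44 in summer and 0.77, 0.24, 1.10, 1.04 and 0.97 in torpor, with torpid animal 2 below all summer animals. Polr3k gave 0.35 on its brightest probe and negative values on the other two.

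The 7 genes of TFIIIA and TFIIIC had a median of 0.17, which was -0.36 without MA07, -0.09 over probes at or above the 25th signal percentile and -0.03 with cyclic loess or without summer animal 3. Among their probes was the dim Gtf3c4 probe 952 on MA10, which is not the brightest of its gene and does not enter the median of 0.17. Gtf3c4 is a TFIIIC subunit, and this probe read -3.32, -2.22 and -3.89 in summer and -1.79, -2.21, -1.52 and -1.66 in 4 torpid animals, with no value for torpid animal 2. With duplicates averaged the groups did not overlap, but summer animal 2 and torpid animal 3 were nearly level. The duplicates of summer animal 1 read -4.66 and -1.98, the latter above torpid animal 3. The difference was 1.35 ± 0.45 (SE) (p = 0.00804 unadjusted, 0.245 adjusted by limma). It was 1.73 with first duplicates alone (adjusted p = 0.212 by limma) and 0.97 with second duplicates alone (0.504). With a floor at the 10th percentile of each column it was 0.45, and the other Gtf3c4 clone gave 0.30.

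Gtf3c2, another TFIIIC subunit, had 4 clones at 1.01, 0.51, 0.17 and -0.44. Its MA10 probe read 1.10, 2.08 and 0.96 in summer and 2.02, 2.62, 1.98, 2.38 and 2.94 in torpor (p = 0.0227 unadjusted), with summer animal 2 inside the torpid range. Gtf3c6 was positive with all 3 clones, between 0.16 and 0.25. Gtf3a, the factor for 5S ribosomal RNA genes, gave 0.60 on MA08 and -0.46 with both other clones. Gtf3c1, the largest TFIIIC subunit, gave -0.71 ± 0.48 (SE) on its brightest probe, 0.20 ± 0.23 (SE) on the next brightest and -0.48 ± 0.45 (SE) on the remaining one.

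Among the genes of TFIIA, TFIIB, TFIIE and TFIIF, Gtf2b and Gtf2f1 stood at opposite ends. Gtf2b encodes TFIIB, which joins the polymerase to the promoter-bound TATA-binding protein. Its 3 clones gave 0.97 ± 0.42 (SE), 0.68 and 0.20. The first, on MA10, read 0.19, 0.69 and -0.42 in summer and 1.97, 0.68, 1.34, 0.96 and 0.67 in torpor (p = 0.0332 unadjusted, 0.381 adjusted by limma). Summer animal 2 lay level with the lowest torpid animals.

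Gtf2f1 encodes the large TFIIF subunit. All 3 of its clones were negative, at -0.43 ± 0.19 (SE), -0.40 ± 0.18 and -0.47 ± 0.45. On MA08 it read 0.67, 0.56 and 0.80 in summer and 0.16, 0.45, 0.26, 0.31 and 0.21 in torpor, and on MA07 -0.35, -0.60 and -0.59 against -1.03, -1.12, -0.70, -1.23 and -0.66. Neither of these clones had overlapping groups, and the unadjusted p-values were 0.04998 and 0.0470, with adjusted p-values of 0.432 and 0.426 by limma. Gtf2f1 and Med16 were the genes in which separate clones of the same sign each reached an unadjusted p of 0.05.

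Gtf2e2, the small TFIIE subunit, had a clone in each direction without overlap, but the nearest animals of the groups were nearly level. They read -0.604 in summer and -0.590 in torpor on MA07, and 0.571 in summer and 0.569 in torpor on MA08. On MA07 the difference was 0.68 ± 0.25 (SE) (p = 0.0205 unadjusted) and on MA08 it was -0.27 ± 0.20 (SE) (p = 0.216 unadjusted). Gtf2a2, the small TFIIA subunit, gave 0.50 and 0.15, and Gtf2e1 gave 0.22 and -0.06. Gtf2f2, the partner of Gtf2f1 in TFIIF, gave 0.09 and -0.19. The 6 genes of these factors had a median of 0.15, which was -0.12 without MA07, 0.36 without MA08 and 0.01 without summer animal 3.

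TFIIH opens the promoter and phosphorylates the polymerase. Its 4 measured genes had a median of -0.08, with brightest-probe values between -0.24 and 0.03. The median was 0.03 without MA07 and also 0.03 over probes at or above the 25th signal percentile. Gtf2h5, the smallest subunit, read -0.75, -0.36 and -0.48 in summer and -0.12, -0.22, -0.17, 0.11 and -0.11 in torpor on MA07. That is a difference of 0.43 ± 0.17 (SE) (p = 0.0312 unadjusted) without overlap, but its 2 other clones gave -0.24 and -0.31. Of the TFII-I family, Gtf2ird1 gave 0.44 ± 0.23 (SE) and Gtf2i -0.19 ± 0.27 (SE) on their brightest probes. Another Gtf2ird1 clone gave -0.54 ± 0.30 (SE) (p = 0.0949 unadjusted).

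TFIID, which recognises core promoters through the TATA-binding protein and its associated TAF proteins, had 4 genes higher and 8 lower, with a median of -0.06. Taf1, its largest subunit, gave -0.05 ± 0.22 (SE), and -0.48 and 0.24 with its other clones. Taf7, a partner of Taf1, read 1.65, 1.66 and 1.16 in summer and 1.17, 0.39, 0.80, 1.22 and 0.84 in torpor, a difference of -0.61 ± 0.23 (SE) (p = 0.0250 unadjusted, 0.354 adjusted by limma). Summer animal 3 lay among the torpid animals, and the other Taf7 clone gave -0.14. All 4 Taf9b clones lay between -0.20 and -0.01. Taf5l, a TAF-like protein of the SAGA coactivator, gave -0.32 ± 0.23 (SE), and -0.05 without summer animal 3.

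In SL1, Taf1c read 1.04, 1.38 and 0.60 in summer and 2.35, 1.74, 1.31, 1.57 and 2.28 in torpor on MA11. The difference was 0.84 ± 0.30 (SE) (p = 0.0150 unadjusted, 0.297 adjusted by limma), and torpid animal 3 lay below summer animal 2. Taf1a gave 0.02 ± 0.36 (SE). The median over the 3 SL1 genes was 0.84 by the brightest probes, 0.18 without MA10, 1.38 without MA11 and 0.07 by the median over the probes of each gene.

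Mediator was the largest group, with 23 core genes, 14 higher and 9 lower (median 0.13), and 4 genes of its kinase module (median 0.15). The core direction rests on the brightest probes: by the median over the probes of each gene it was -0.08, and 24 core probes were positive and 26 negative. The kinase module median was -0.05 without MA08. Med16 of the tail, which contacts activators, read 0.80, 0.50 and 0.90 in summer and 2.02, 1.97, 1.26, 1.96 and 1.88 in torpor at MA11 probe 7265. The groups did not overlap, and torpid animal 3 lay between the others and the summer animals. The difference was 1.09 ± 0.25 (SE) or 2.12-fold (p = 0.000839 unadjusted, 0.103 adjusted by limma).

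Med16 was also higher without overlap with a second clone, on MA08, at -0.09, 0.20 and -0.01 in summer against 0.98, 0.77, 0.48, 0.24 and 0.62 in torpor. That difference was 0.59 ± 0.22 (SE) (p = 0.0192 unadjusted, 0.322 adjusted). The clone of the MA11 probe gave 0.35 on MA10, and the remaining clone gave -0.10.

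Of the other tail subunits, Med25 was negative with 3 clones, at -0.72, -0.51 and -0.47, each with an unadjusted p above 0.05. Med24 gave 0.07 on its brightest probe, Med23 gave 0.16, and Med15 gave values of both signs over 4 clones. In the middle part, Med21 read 0.82, 0.55 and 0.56 in summer and 1.43, 1.20, 1.02, 1.68 and 1.22 in torpor on MA11, a difference of 0.67 ± 0.23 (SE) without overlap (p = 0.0133 unadjusted, 0.287 adjusted by limma). The same Med21 clone on MA08 gave -0.30. Med1, the subunit through which nuclear receptors bind Mediator, gave 0.34 ± 0.25 (SE) and 0.18, and Med14, the backbone of the complex, gave -0.10 ± 0.49 (SE).

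In the head of Mediator, Med22 on MA11 depended on single animals. It read 3.60, 2.23 and 5.14 in summer and 4.48, 4.91, 4.86, 5.03 and 5.12 in torpor, so that summer animal 3 was the highest of all 8. The difference of 1.22 ± 0.48 (SE) had an adjusted p of 0.359, and without summer animal 3 it was 1.97 with an adjusted p of 0.0418. The same clone on MA08 gave -0.16. Med17, a core head subunit, gave -0.48 ± 0.22 (SE) (p = 0.0506 unadjusted) on its brightest probe, and Med30 gave -0.90 ± 0.46 (SE) from a dim spot. In the kinase module, Med12 gave 0.18 and 0.61, Med13 0.12 and -0.03, and Med13l 0.42 and -0.29.

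**Figure D3:**
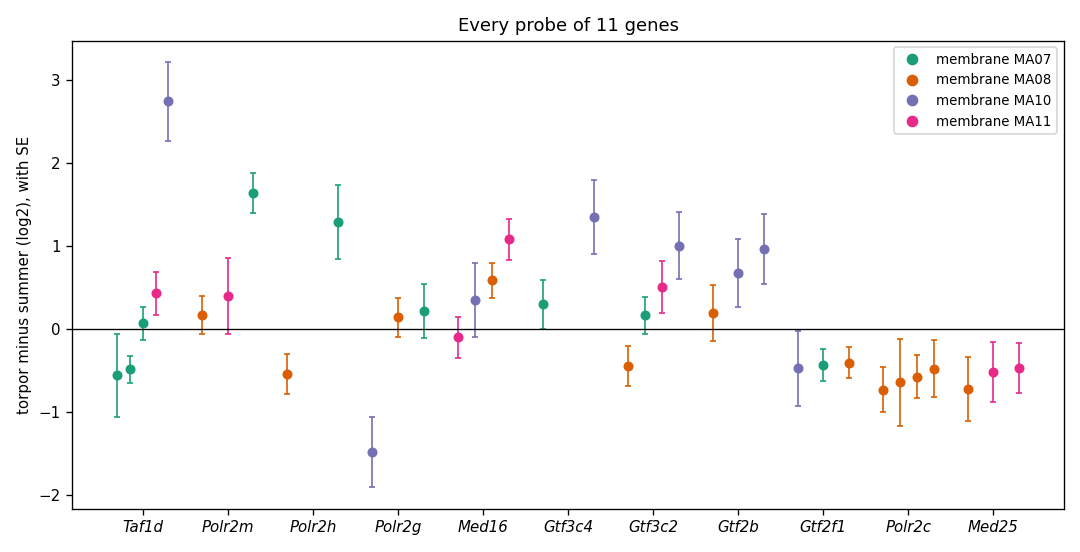
Difference between torpor and summer (log2, y axis) with its standard error for every probe of 11 of the genes described, coloured by membrane. The Taf1d probes run from -0.56 to 2.75, whereas the 3 Gtf2f1 clones lie together between -0.47 and -0.40.

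How well probes of 1 gene agreed limits what a single probe can show. Of 159 pairs of different clones of a gene (65 genes), 80 pairs (50.3%) had differences of the same sign, with a median gap of 0.39 and a largest gap of 3.30, for Taf1d. Of 19 pairs of spots of the same clone (12 genes), 13 (68.4%) had the same sign, with a median gap of 0.22. Of these 13 pairs, 6 came from the 4 Polr2c spots, which were all negative, so this share leans on 1 gene. The pairs share genes and animals, so these are descriptions with no test.

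Gene by gene, 65 had probes from at least 2 clones, of which 12 were positive throughout, 12 negative throughout and 41 of both signs. With at least 3 clones there were 26 genes, 4 positive throughout (Polr2m, Polr3f, Gtf2b and Gtf3c6) and 3 negative throughout (Gtf2f1, Taf9b and Med25). Of the 21 probes at an unadjusted p under 0.05, 19 had a second clone to set beside them. Every other clone had the same sign in 8 of these and none had it in 6, and in 4 probes (2 each of Med16 and Gtf2f1) another clone of that sign also reached that p.

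**Figure D4:**
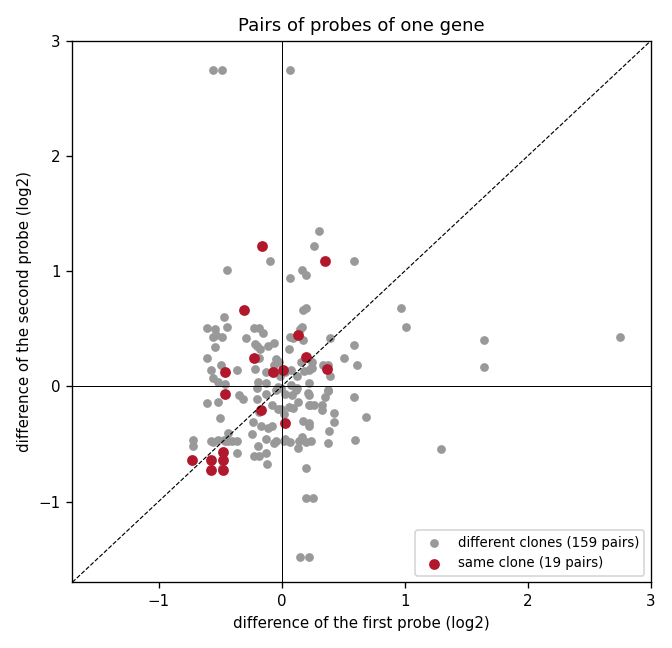
Differences between torpor and summer (log2) of 2 probes of the same gene, one on each axis, for 159 pairs of different clones (grey) and 19 pairs of the same clone (red), with the line of equality dashed. Grey points fall in all 4 quadrants, 80 of them with both differences of 1 sign.

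The precision also differed between membranes. The median standard error of the member probes was 0.22 on MA07 (60 probes), 0.25 on MA08 (59 probes), 0.43 on MA10 (47 probes) and 0.29 on MA11 (34 probes). Duplicates of 1 RNA differed by a median of 0.22 to 0.92 over the member probes, most on MA10 in summer animal 2. Of the 200 probes, 49 lay under the 25th signal percentile of their membrane. Members' median differences were 0.07, -0.08, -0.04 and 0.13 on MA07, MA08, MA10 and MA11.

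A further 51 transcription genes with symbols outside the rule (123 probes) included 24 elongation factor genes of polymerase II and 6 mitochondrial transcription genes. Of the 51, 28 were higher and 23 lower, with a median of 0.05. None of their probes passed the adjusted threshold by limma, and 6 (4.88%, against 11.6% of all tested probes) reached an unadjusted p of 0.05, 3 in each direction. The TATA-binding protein gene Tbp gave 0.36 ± 0.41 (SE) on its brightest probe, but 4 of its 6 probes were negative and their median was -0.12. The kinases Cdk7 of TFIIH, Cdk8 of Mediator and Cdk9 of the elongation factor P-TEFb gave 0.11 ± 0.22, 0.32 ± 0.34 and 0.08 ± 0.23 (SE) on their brightest probes.

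For the mitochondrial genome, the polymerase Polrmt gave 0.38 ± 0.43 (SE) and its factor Tfam -0.09 ± 0.21 (SE) on their brightest probes. Polrmt had 2 positive and 2 negative probes, from -0.42 to 0.38, and the Tfam probes ran from -0.09 to 0.04. Eloc encodes elongin C, a partner of both an elongation factor and ubiquitin ligases. Its MA08 probe 8527 read 2.84, 0.85 and 3.26 in summer and 4.36, 4.13, 4.27, 4.98 and 3.89 in torpor, without overlap. The difference was 2.01 ± 0.47 (SE) (p = 0.00115 unadjusted, 0.120 adjusted by limma), and the other Eloc clones gave 0.14 and -0.24.

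The tissue label was set against cell type markers. Of 8 brown adipocyte markers, 5 were measured by a single-symbol probe (Dio2, Cidea, Elovl3, Prdm16 and Ppargc1a), 4 of them with a brightest probe at or above percentile 59.0, and Ucp1 was not analysed here. None of the 74 probes of 38 marker genes passed the adjusted threshold by limma, and 12 (16.2%, against 11.6% of all tested probes) reached an unadjusted p of 0.05. Of these 4 were higher (5.41%, against 6.39%) and 8 lower (10.8%, against 5.18%). The higher probes were 2 of immune, 1 of muscle and 1 of nerve markers. The lower probes were 5 of immune, 2 of white adipocyte and 1 of endothelial markers. By brightest probes 4 of the 5 brown markers were lower in torpor, while Prdm16 was higher, at 0.56 ± 0.40 (SE). None of the 8 probes of these 5 genes reached an unadjusted p of 0.05 by limma. The median deviation of the 5 brown markers ran from 0.15 to 0.29 in summer and from -0.53 to -0.08 in torpor. That of 4 white adipocyte markers ran from 0.28 to 0.90 in summer and from -0.74 to -0.03 in torpor, with the brightest probes of Agt at -1.997 and of Psat1 at -1.58 and other probes of these genes up to 0.01 and 0.11. The median difference of the white adipocyte markers was -0.93 by brightest probes and -0.12 over the probes of each gene. The ranges of the brown and white markers, taken from brightest probes, were lower in torpor without overlap, while those of general adipocyte, muscle, immune, endothelial, erythroid and nerve markers overlapped between the groups. The part of cell makeup in the differences of single members was not tested.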

How the data were processed

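Brown adipose tissue RNA of 3 summer active and 5 torpid arctic ground squirrels was measured on 4 membranes, in 44 columns. The intensity values deposited by the authors are linear and scaled so that each column has a median of 1, as the values themselves show. The sources used here do not state the image analysis or background treatment, so signal over background is unknown and the number of arrays limits the precision. Empty cells, 3.45% of values, were kept as missing.

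Values were taken to log2 and duplicates of an RNA averaged. Each membrane was fitted with limma 3.58.1 in R 4.3.3 (lmFit, eBayes, two-sided) for the 37848 probes with at least 2 animals per group. Benjamini-Hochberg adjustment ran over all of them with a threshold of 0.05. The fit was tested on simulated data.

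Symbols came from the platform annotation, which can be old, and 85 of the 86 member symbols are symbols or synonyms in the squirrel's RefSeq annotation (mUroPar1.hap1). Probes are mouse cDNA, so mismatches with squirrel RNA may lower their signal. No probe sequences were used. Related transcripts may share a probe.

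The members, complexes and other gene lists were chosen with earlier results of these data known. Named were members called or at an unadjusted p under 0.01, up to 3 genes per complex with the smallest p, and catalytic or central subunits whatever their values. Other genes in the text give the range of a complex and were chosen after their values were seen. The other transcription genes and markers came from lists, also with Eloc by its p. Animals of the same number in the 2 groups are different animals, with correlations of deviations from -0.06 to 0.05, so no pairing was used. No scan or slide batch is given in the sources used here. Alternatives covered scaling, a floor at the 10th percentile, a filter at the 25th, the variance model, duplicates, a replicate block, each animal, each membrane and the probe that represents a gene.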

Additional observations from a re-analysis of the deposited data

Results flagged for a closer look

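In 2 of the 54 named probes a single torpid animal lay apart from the other 4, by a gap that was a large share of the group's whole range. Chance alone gives about 1 such group in 20. Med16 on MA11 (probe 7265) read 1.26 in torpid animal 3, with the nearest other torpid animal at 1.88 and the farthest at 2.02, a gap of 0.82 of the range. Without that animal the Med16 difference was 1.23 with an adjusted p of 0.0774 by limma. Taf4 on MA11 (probe 2962), a TFIID subunit, read -0.75 in torpid animal 4, with the others between 0.60 and 0.91, a gap of 0.81 of the range. Its difference of -0.58 ± 0.37 (SE) did not pass the test with all animals.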

How the results depend on the processing

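Against 117 called probes in the series, 63 were called with cyclic loess (73.0% of them higher in torpor, against 83.8%), 76 with a floor at the 10th percentile, 228 with trended and robust variance moderation, 176 with first duplicates only, 38 with second duplicates only, 31 with the replicate block and 17 to 347 with an animal left out. Of the 2 called members, 1 remained (Taf1d) with cyclic loess, the floor, the variance trend or the replicate block, 0 with second duplicates, and 0 to 2 members were called with an animal left out. With the replicate block over animals 1 to 3 the Polr2m difference was 1.84 with an adjusted p of 0.119. The median of the 86 genes was 0.0045 with cyclic loess, -0.0209 without MA07 and -0.0040 by the median over a gene's probes, and that of the other transcription genes -0.0116 with first duplicates, -0.0298 without MA07, -0.0177 without MA10 and -0.0218 to 0.0555 with an animal left out. Over 846 comparisons of a named probe with an alternative, 800 kept their direction and side of the threshold. Of the rest, 14 lost and 1 gained a call, and 31 changed sign, none of them among probes called with all animals. Only the Taf1d and Polr2m probes were called with all animals, each set against 16 alternatives, and all 14 lost calls were theirs. The other named probes were uncalled with all animals, so they had no call to lose. Sign changes were Gtf3a (-0.0509) and Polr2b (0.35) with the floor, Taf1a (-0.0549), Polr3b (0.18) and Tfam (0.0199) with first duplicates, Gtf2h4 (-0.0768), Polr2b (0.0935), Taf1 on MA08 (0.0513), Med14 (0.12) and Cdk9 (-0.0031) with second duplicates, and Taf1 on MA08 (0.0226), Med14 (0.41) and Tfam (0.10) with the replicate block. With an animal left out, ranges that crossed 0 were -0.0200 to 0.226 for Cdk9, -0.0691 to 0.442 for Med13, -0.51 to 0.20 for Med14, -0.27 to 0.24 for Polr3b, -0.165 to 0.0413 for Taf1 on MA08, -0.0478 to 0.138 for Taf1a and -0.163 to 0.0372 for Tfam. The cause was not tested. No scaling moved the median of all probes by 0.01 or more. Each scaling brings the columns to a common level, which holds this median near 0, so it cannot show how stable the results are.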
